A study of Homo sapiens with 12 samples.

Results

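The 8 genes described here encode the AP-1 transcription factors and their close partner ATF3. They are the Fos members FOS, FOSB, FOSL1 and FOSL2, the Jun members JUN, JUNB and JUND, and ATF3, chosen by gene name out of 57736 genes in the count files, of which 27326 had a count in any library. Transcripts were counted in HepG2, a human hepatocellular carcinoma line, and in Ls174, a human colon cancer line, both wild type. For each line there were 3 untreated control libraries and 3 libraries of cells kept for 24 h with HME, a freeze-dried methanol extract of the red seaweed Hypnea musciformis. The labels give 0.7 mg/ml of extract and the methods of the study a slightly higher concentration, and the controls are labelled as untreated, with no solvent control named. Each group thus stands for 1 line and 1 time point, and the p-values measure the spread between these libraries, which the methods of the study call biological replicates and the labels do not describe further.

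AP-1 is a dimer that binds DNA through a basic region next to a leucine zipper (bZIP). Jun proteins pair with each other or with Fos proteins, whereas Fos proteins need a Jun partner, and ATF3 pairs with Jun proteins as well. FOS, JUN and ATF3 are textbook early response genes, switched on within minutes to hours by growth factors, cytokines or cell stress through the ERK, JNK and p38 kinases, and JUN is needed for liver development and regeneration. JUND is the member that most resting cells already carry.

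Levels are in CPM, that is counts of 3′ tags set relative to the size of the library, with the 12 libraries scaled together by the trimmed mean of M-values (TMM). A 3′ library yields about a tag per transcript whatever its length, so CPM can be set side by side between genes. The libraries held 1790841 to 3656662 counts, and 3 counts, taken as the detection floor, were worth 0.768 to 1.87 CPM. Liver markers such as ALB and APOA1 summed to 12873 to 21447 CPM in HepG2 and to at most 127 CPM in Ls174, and colon markers to 374 to 445 CPM in Ls174 and 69.1 to 209 CPM in HepG2. Endothelial markers stayed at or below 4.36 CPM, and blood markers summed to at most 5.89 CPM in Ls174 and to 202 to 723 CPM in HepG2, where 3 of 6, among them PTPRC, were at 0.

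Libraries that stood apart by replicate spread or mesenchymal markers were HepG2 control 2, Ls174 control 1 and HepG2 HME 2. HepG2 control 2 differed from the other HepG2 controls by a chi-square of 54.1 and 49.1 per degree of freedom, against 13.6 between those other controls, where counting noise alone gives about 1. Ls174 control 1 differed from the other Ls174 controls by 34.5 and 37.0, against 5.68 between them. In HepG2 HME 2, mesenchymal markers summed to 965 CPM, with 3 of 8 at 0, against 4.03 to 16.8 CPM in the other HepG2 libraries. In those, 2 to 6 of the 8 were at 0, so the sum and not the number of markers found set HME 2 apart. Liver markers summed to 127 CPM in Ls174 control 3, with 0 of 8 at 0, and to 57.9 CPM in Ls174 HME 1, with 1 at 0. In the other Ls174 libraries they summed to at most 9.53 CPM, with 7 or 8 at 0. The source of these liver counts was not tested.

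In all 8 genes the reads lay at the 3′ end. JUN was counted in a single region at chr1:59246465-59247746 of hg19 on the minus strand, ATF3 at chr1:212792448-212794316 on the plus strand, FOSL1 at chr11:65659323-65660759 on the minus strand, and JUND at chr19:18390563-18391250 on the minus strand. JUNB was counted at chr19:12903630-12904124 and FOSL2 at chr2:28635316-28640376, both on the plus strand. FOS had 96.1% of its counts in chr14:75748128-75749130 and FOSB 89.8% in chr19:45976108-45978634, both on the plus strand. By the GENCODE annotation on GRCh37 these regions lie over the 3′ UTR in the last or only exon and, in some of the genes, run into the coding part or past the annotated end. No region of a member shared coordinates with another gene.

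The sequences before the start sites of these genes are shown as a description, and their part in the changes with HME was not tested. In the 250 bases before the start site (RefSeq, GRCh38.p14), windows existed for 7 of the 8 members, FOSL1 being the member without. Searched on both strands were TGANTCA, the classical AP-1 element, TGACGTCA, the cyclic AMP response element, its shorter core TGACGT, which overlaps it, and TGACATCA, the variant known from the JUN promoter. The stretches below run 5′ to 3′ on the strand of the gene, with the match in capitals.
JUN: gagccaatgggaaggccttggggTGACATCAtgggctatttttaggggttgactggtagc
FOS: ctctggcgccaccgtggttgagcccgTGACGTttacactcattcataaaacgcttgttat
FOSB: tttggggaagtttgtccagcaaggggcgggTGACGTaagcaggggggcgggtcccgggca
FOSL2: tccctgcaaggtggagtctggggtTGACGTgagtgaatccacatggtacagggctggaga
ATF3: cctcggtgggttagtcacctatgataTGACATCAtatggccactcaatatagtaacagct
JUND: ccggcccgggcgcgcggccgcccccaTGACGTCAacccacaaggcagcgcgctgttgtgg
The stretches lie at chr1:58784078-58784137 on the minus strand for JUN, chr14:75278738-75278797 for FOS, chr19:45467906-45467965 for FOSB, chr2:28392768-28392827 for FOSL2, chr1:212565258-212565317 for ATF3, and chr19:18281789-18281848 on the minus strand for JUND. The match began 67 bases before the start of JUN, 64 before FOS, 60 before FOSB and 66 before FOSL2. It began 123 bases before an ATF3 start, the other ATF3 window holding no match, and 200 bases before JUND, which had a further TGACGT 87 bases before its start. No member window held TGANTCA, and the JUNB window held none of the motifs. Of 35116 windows of this length, 6.57% held TGANTCA, 1.65% TGACGTCA, 7.10% TGACGT and 2.38% TGACATCA. A match describes letters only, and 3′ counts do not tell which start site was used.

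The 3′ end of FOS is known for AU-rich elements, built from overlapping copies of ATTTA, which shorten the life of its transcript. The counted region of FOS held 5 copies and the longer form TTATTTATT. At least as many copies were present in 11.6% of 6340 other regions cut to the same length, and the longer form in 4.62%. The FOSL2 region, which is far longer, held 9 copies and the longer form, against 69.8% and 22.4% of 662 other regions cut to its length. The sites with the longer form are shown with ATTTA in capitals.
FOS: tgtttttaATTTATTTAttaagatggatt
FOSL2: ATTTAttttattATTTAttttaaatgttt
They lie at chr14:75748763-75748791 and chr2:28639222-28639250 of hg19. The regions of the other members held 1 to 4 copies of ATTTA and no longer form.

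With HME, 7 of the 8 members rose in HepG2. By log2 fold change, ATF3 rose the most of those with counts in the controls, followed by JUN, FOSB, FOSL2, JUNB and FOSL1, and FOS went from 0 counts in every control to a measurable level. JUND was the only member not called. A gene was called at a Benjamini-Hochberg adjusted p under 0.05 over all 11343 genes tested by the quasi-likelihood test of edgeR, a limit that 2.77% of those genes passed upwards. The study itself set its limits at 0.05 for the unadjusted p and at 0.58 for the log2 change, and by these 7 members were higher as well, against 11.3% of all genes tested. For these 7 every HME value lay above every control value, which held for 15.5% of all genes tested. FOS and FOSB were at or near the floor in the controls and passed the filter on low counts through the HME libraries. The change itself thus helped to decide which members were tested, and the count of 7 is a description. Liver markers moved as well, from sums of 18200.4 to 21447 CPM in the controls to 12873 to 14057 CPM with HME, and their part in these results was not tested. In a bulk library fewer cells of a kind and less RNA per cell cannot be told apart.

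**Figure D1:**
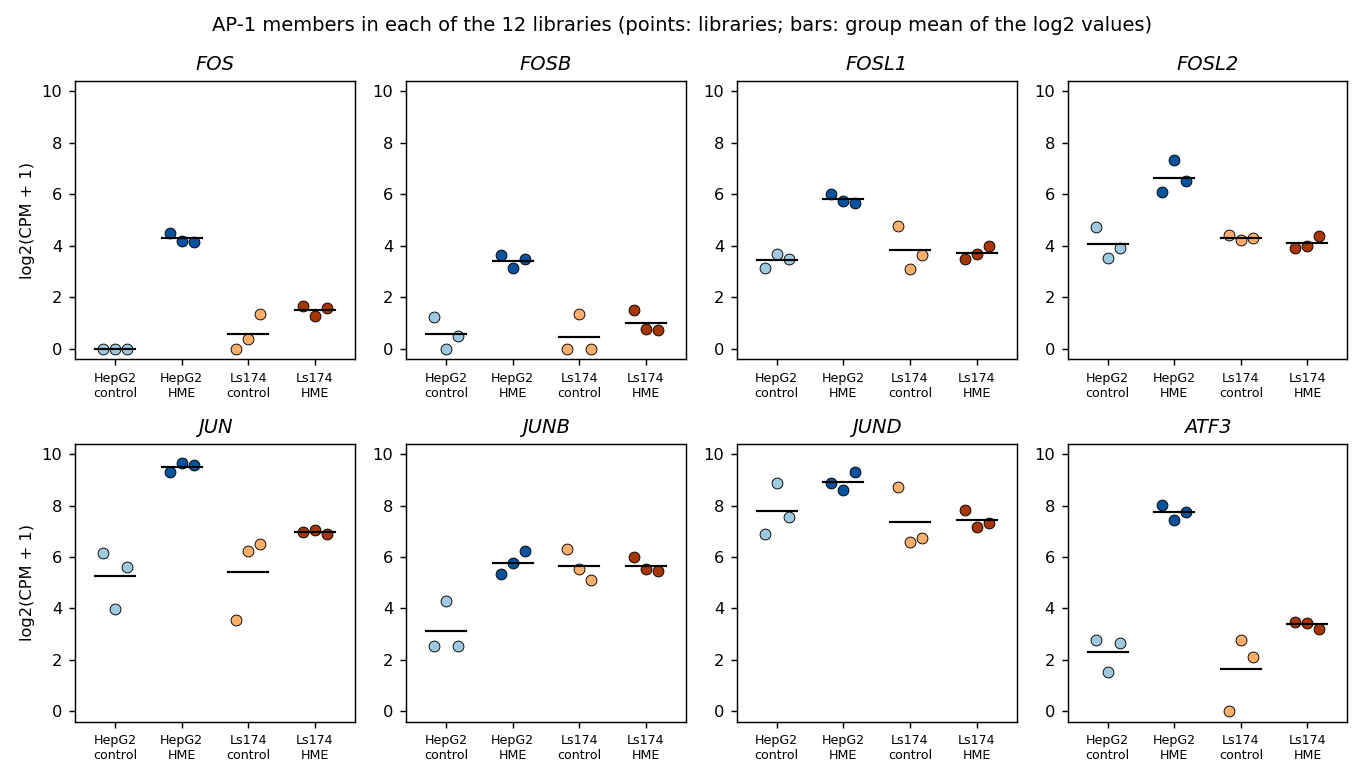
Log2(CPM + 1) of each AP-1 member (panels) in the 12 libraries, by line and treatment; points are libraries and bars the mean of the log2 values in a group. In HepG2 all HME points of 7 members lie above all control points, JUND being the exception, while in Ls174 this is seen for JUN and ATF3.

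Among the Fos members, FOS is the founding member and FOSB its closest relative, and both carry a strong activating domain. FOS had 0, 0 and 0 counts in the HepG2 controls and 55, 49 and 28 counts with HME, or 21.8, 17.3 and 16.8 CPM (18.6 ± 2.72, SD, n = 3). Set against the highest floor of a control, 1.87 CPM, the mean was at least 9.97-fold higher (adjusted p = 0.00249). The fitted fold depends on the prior count when a group is at 0 and is not given.

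FOSB had 5, 0 and 1 counts in the controls (0.583 ± 0.690 CPM, SD, n = 3) and 11.5, 7.78 and 10.2 CPM with HME (9.82 ± 1.88). Its log2 fold change came to 3.70 (SE 0.67, adjusted p = 0.0184), and to 5.06 without control 1, which held 5 of the control counts. No HME library of HepG2 was low for FOS or FOSB, and the FOSB controls were all near the floor.

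FOSL1 and FOSL2, also called Fra-1 and Fra-2, lack the activating domain of FOS. FOSL1 rose from 7.80, 11.8 and 10.1 CPM to 62.9, 52.0 and 49.8 CPM (9.91 ± 2.03 to 54.9 ± 7.01, SD, n = 3), 2.49 higher on the log2 scale (SE 0.34, adjusted p = 0.00456). FOSL2 rose from 25.3, 10.6 and 14.1 CPM to 67.3, 160 and 89.5 CPM (16.7 ± 7.66 to 106 ± 48.5), 2.66 higher on the log2 scale (SE 0.45, adjusted p = 0.0138). The highest FOSL2 value belonged to HME 2, the library with the high sum of mesenchymal markers, whose part in it was not tested. Without that library the log2 fold change of FOSL2 was 2.25 at an adjusted p of 0.05003, just past the limit, and that of FOSL1 2.55 (adjusted p = 0.0223).

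JUN, the strongest activator among the Jun proteins, had 69.4, 15.0 and 48.5 CPM in the HepG2 controls and 635, 806 and 754 CPM with HME (44.3 ± 27.5 to 732 ± 87.5, SD, n = 3). Its log2 fold change was 4.07 (SE 0.52, adjusted p = 0.00332). Treated libraries lay close together, and the control spread came mainly from control 2, the lowest.

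JUNB, which can oppose JUN at shared targets, had 4.84, 18.7 and 4.85 CPM in the controls and 39.97, 53.7 and 73.9 CPM with HME (9.46 ± 7.99 to 55.9 ± 17.1, SD, n = 3). The log2 fold change was 2.62 (SE 0.57, adjusted p = 0.0400). The high control was again control 2, without which the log2 fold change was 3.58 (adjusted p = 0.000744).

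JUND, the member with the highest level in the untreated lines, had 117, 465 and 188 CPM in the controls and 469, 383 and 635 CPM with HME (257 ± 184 and 496 ± 128, SD, n = 3). The groups overlapped through control 2 alone, and the log2 value of 0.93 (SE 0.52) did not pass the test (adjusted p = 0.315). Without control 2 it was 1.77 (SE 0.32, adjusted p = 0.0113), so that all 8 members were called.

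ATF3, induced by many kinds of stress, had 5.92, 1.87 and 5.25 CPM in the controls and 259, 170 and 216 CPM with HME (4.35 ± 2.17 to 215 ± 44.4, SD, n = 3). The ratio of the means was 49.4, or 5.57 as a fitted log2 value (SE 0.45, adjusted p = 0.000620). Its lowest HME library lay far above its highest control.

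FOS, FOSL1, JUN and ATF3 were called in all 6 fits that left out 1 HepG2 library. FOSL2 was called in 3 of these, FOSB in 2 and JUNB in 1, and the count fell to 4 members without HME 2, HME 3 or control 3.

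The make-up of the Jun family in HepG2 shifted with HME. JUN made up 36.2%, 3.00% and 20.1% of the JUN, JUNB and JUND counts in the controls and 55.5%, 64.9% and 51.6% with HME. JUND made up 61.2%, 93.3% and 77.9% in the controls and 41.0%, 30.8% and 43.4% with HME. Neither share overlapped between the groups, at the smallest two-sided p that an exact permutation test of 3 against 3 libraries can give, 0.100. Exact binomial 95% intervals of the JUN share, which cover counting error only, ran from 1.93 to 4.43% in control 2, from 17.0 to 39.9% over the other controls and from 49.6 to 66.4% over the HME libraries.

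The summed Jun level went from 191 to 499 CPM in the controls to 1144 to 1463 CPM with HME, and the summed Fos level from 22.4 to 34.4 CPM to 163 to 237 CPM. Within the Fos family the shares stayed mixed. FOSL2 made up 47.2 to 73.4% of Fos counts in the controls and 41.2 to 67.5% with HME (exact permutation p = 0.700). FOS made up none of the Fos counts in the controls and 7.30 to 13.3% with HME.

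**Figure D2:**
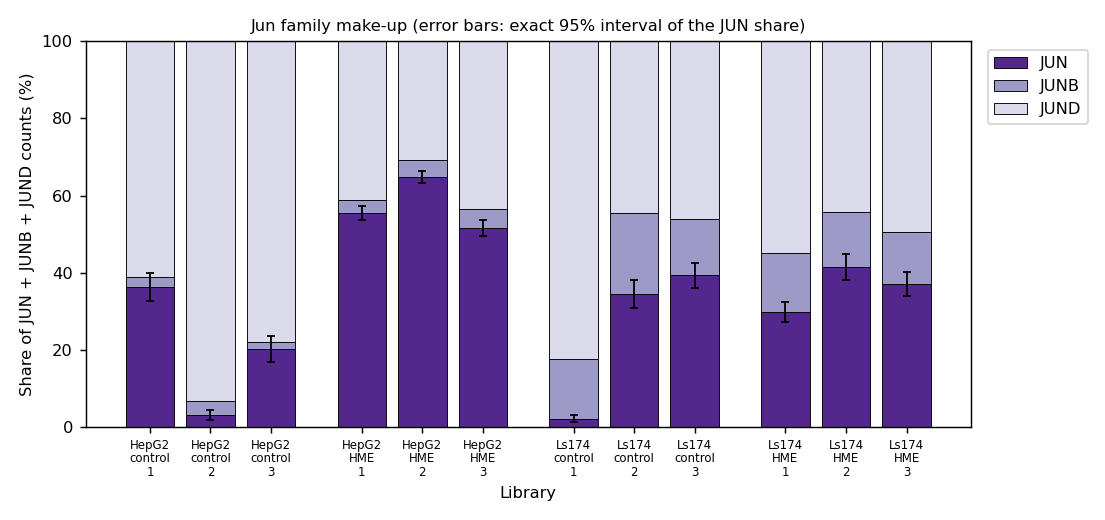
Stacked shares (%) of JUN, JUNB and JUND among their summed counts in each of the 12 libraries; error bars are exact 95% intervals of the JUN share. The JUN share is 51.6 to 64.9% in the HepG2 HME libraries and 3.00 to 36.2% in the HepG2 controls, and is lowest of all, 2.13%, in Ls174 control 1.

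In Ls174 none of the members passed the test. Of the 8 members, 6 had enough counts to be tested, and 0 were called by edgeR at an adjusted p under 0.05 or at the limits of the study, which 1.18% and 12% of 11319 genes passed in either direction. No member had an unadjusted p under 0.05 in this fit. In the same test with all genes of at least 1 count, 1 member was called and 2 passed at the limits of the study. In a fit of all 12 libraries 0 were called and 1 passed at the limits of the study. At the adjusted limit 2 were called by a binomial test on summed counts and 0 by DESeq2, and at the limits of the study DESeq2 passed 2, JUN and ATF3, and the exact test of edgeR 1, ATF3. The 134 genes called in Ls174 became 979 without control 1, 2 without control 2, 10 without control 3 and 0 without any of the HME libraries. JUN and ATF3 had every HME value above every control value, as had 11.6% of all genes tested.

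JUN in Ls174 had 10.8, 74.2 and 89.4 CPM in the controls and 123, 133 and 118 CPM with HME (58.1 ± 41.7 and 124 ± 7.62, SD, n = 3). The log2 fold change was 1.08 (SE 0.56, adjusted p = 0.440). The treated libraries were tightly grouped, while control 1 lay far below the other controls.

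ATF3 in Ls174 had 0, 5.90 and 3.33 CPM in the controls and 10.2, 9.96 and 8.21 CPM with HME (3.08 ± 2.96 and 9.46 ± 1.08, SD, n = 3). The log2 fold change was 1.52 (SE 0.75, adjusted p = 0.415). Its level with HME in Ls174 was 9.46 CPM, against 215 CPM in HepG2 with HME.

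FOS had 0, 1 and 6 counts in the Ls174 controls and 6, 4 and 6 with HME (0.616 ± 0.812 and 1.86 ± 0.394 CPM, SD, n = 3), and FOSB 0, 5 and 0 counts and 5, 2 and 2 with HME. The filter on low counts kept both out of the test. With every gene of at least 1 count tested, the log2 values were 1.37 (SE 1.11, adjusted p = 0.696) for FOS and 0.93 (SE 1.29, adjusted p = 0.770) for FOSB.

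FOSL1 had 26.1, 7.45 and 11.5 CPM in the controls and 10.2, 11.7 and 14.8 CPM with HME, a log2 value of -0.27 (SE 0.47). FOSL2 had 20.7, 17.7 and 18.7 CPM and 14.2, 14.9 and 19.7 CPM with HME, a log2 value of -0.22 (SE 0.27). The groups overlapped for both genes, and control 1 was the high FOSL1 library.

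JUNB had 78.7, 45.6 and 33.5 CPM in the controls and 63.8, 45.5 and 42.7 CPM with HME (log2 fold change -0.05, SE 0.34), and JUND 418, 95.9 and 104 CPM and 226, 142 and 157 CPM (log2 fold change -0.25, SE 0.55). Control 1 was the highest library for both. Without it the JUN, JUNB and JUND log2 fold changes were 0.61, 0.37 and 0.81, JUN (adjusted p = 0.0342) and JUND (adjusted p = 0.0210) were called, and the direction of JUNB and JUND turned.

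**Figure D3:**
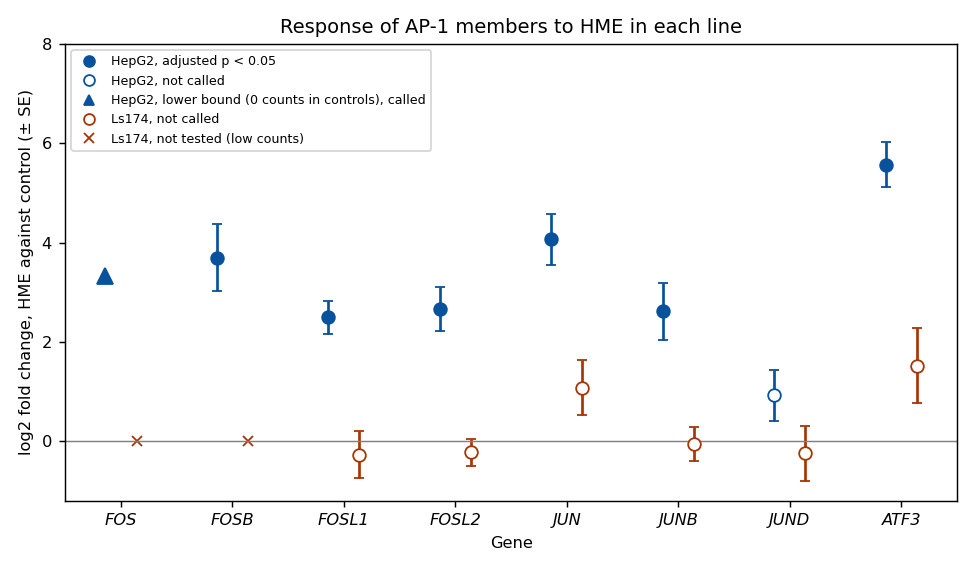
Log2 fold change (± SE) of HME against control for each AP-1 member in HepG2 and Ls174; filled symbols mark adjusted p < 0.05, the triangle is the lower bound for FOS, and crosses mark genes not tested. The HepG2 values of the 6 other called members lie between 2.49 and 5.57 and the Ls174 values between -0.27 and 1.52.

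Whether the response differed between the lines was tested as an interaction of line and treatment over all 12 libraries. The response was larger in HepG2 for 3 of the 8 members, against 0.613% of 13040 genes in this direction. These were ATF3, with a difference of 4.03 in log2 fold change (SE 0.80, adjusted p = 0.0339), FOSL2 with 2.85 (SE 0.53, adjusted p = 0.0276) and FOSL1 with 2.75 (SE 0.58, adjusted p = 0.0447). At the limits of the study 6 members passed, against 7.42% of all genes in this direction. The calls rested on single libraries: 0 members were called without HepG2 control 3, HepG2 HME 2 or 3, Ls174 control 3 or any of the Ls174 HME libraries, 1 without HepG2 control 1, HepG2 HME 1 or Ls174 control 2, 4 without HepG2 control 2 and 5 without Ls174 control 1.

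FOS (difference 7.35, adjusted p = 0.0577, a fitted value that depends on the prior count since groups were at or near 0), JUNB (2.69, adjusted p = 0.0932), JUN (2.94, adjusted p = 0.134), FOSB (2.80, adjusted p = 0.447) and JUND (1.18, adjusted p = 0.570) did not pass, so that a difference between the lines was not shown for them. Without both HepG2 control 2 and Ls174 control 1, 6 members were called.

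The untreated lines differed in JUNB. Its level was 5.56-fold higher in the Ls174 controls (52.6 ± 23.4 CPM, SD, n = 3) than in the HepG2 controls (9.46 ± 7.99 CPM), with no overlap (log2 difference, HepG2 against Ls174, -2.48, SE 0.63, adjusted p = 0.0199). It was the only call among 6 members tested, at the adjusted p and at the limits of the study alike, while 23.5% and 35.0% of 11907 genes passed these in either direction. The call was lost without HepG2 control 1 (adjusted p = 0.0730) or control 3 (adjusted p = 0.0798). With HME the JUNB level of HepG2, 55.9 ± 17.1 CPM, came to lie beside that of Ls174 with HME, 50.7 ± 11.4 CPM.

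JUND had the highest mean level of the members in both untreated lines, 257 CPM in HepG2 and 206 CPM in Ls174, with every value above those of the next member, JUN. In untreated HepG2 the order went on with JUN (44.3 CPM), FOSL2 (16.7), FOSL1 (9.91), JUNB (9.46), ATF3 (4.35), FOSB (0.583) and FOS, and neighbours overlapped from JUN down to ATF3 and again between FOSB and FOS. In untreated Ls174 it went on with JUN (58.1 CPM), JUNB (52.6), FOSL2 (19.0), FOSL1 (15.0), ATF3 (3.08), FOS (0.616) and FOSB (0.517). There JUN and JUNB overlapped, as did FOSL2 and FOSL1, and ATF3, FOS and FOSB among themselves.

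In HepG2 with HME the order was JUN (732 CPM), JUND (496), ATF3 (215), FOSL2 (106), JUNB (55.9), FOSL1 (54.9), FOS (18.6) and FOSB (9.82). The neighbours FOSL2 and JUNB overlapped, as did JUNB and FOSL1, and the lowest JUN library met the highest JUND library at 635 CPM. In Ls174 with HME it was JUND (175 CPM), JUN (124), JUNB (50.7), FOSL2 (16.3), FOSL1 (12.2), ATF3 (9.46), FOS (1.86) and FOSB (1.06), with overlap between FOSL2 and FOSL1 and between FOS and FOSB. JUN thus stood above JUND in HepG2 with HME and below it in the other groups.

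The controls that stood apart departed from their line in the same direction for 6 of the 8 members. Over all genes that passed the filter, the deviations of these libraries from their group means correlated as well (r = 0.35). The share of all genes with the same direction was not counted, so the 6 of 8 is not read as particular to AP-1. Against the mean of the other controls, on the log2 scale of CPM + 1, JUN was at -1.91 in HepG2 control 2 and at -2.81 in Ls174 control 1, ATF3 at -1.199 and -2.49, and FOSB, near its floor, at -0.91 and -0.83. JUND was at 1.60 and 2.05, JUNB at 1.75 and 0.97 and FOSL1 at 0.37 and 1.37. FOSL2 lay on different sides, at -0.84 and 0.17, and FOS had no count in either library. JUN and ATF3 were thus low and JUNB, JUND and FOSL1 high in both libraries. Each held the fewest counts among the controls of its line, 1874122 in HepG2 control 2 and 1977996 in Ls174 control 1. Ls174 control 1 had a count in 13885 genes, against 17139 and 18324 in the other Ls174 controls. HepG2 control 2 had a count in 17044 genes, against 19354 and 17620 in the other HepG2 controls. What set these libraries apart was not tested.

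**Figure D4:**
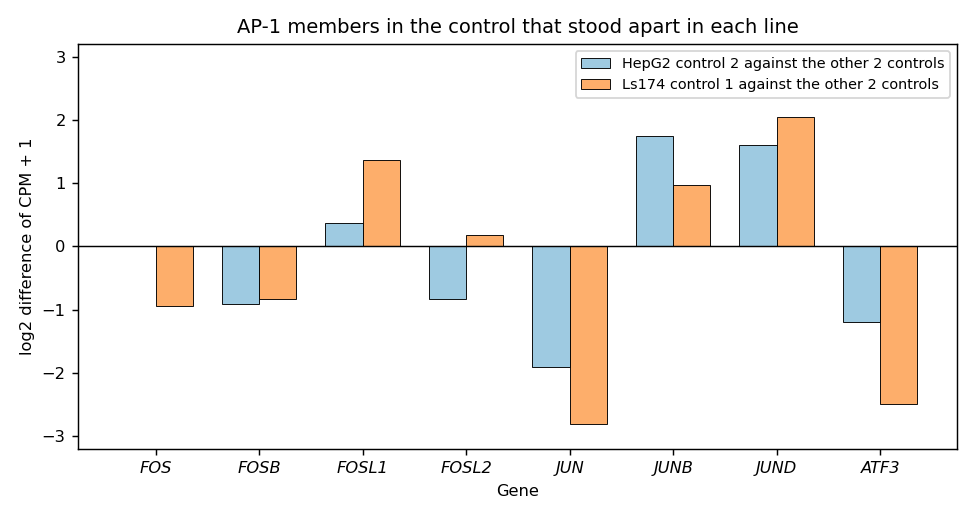
Log2 difference of CPM + 1 between the control that stood apart and the mean of the other 2 controls of its line, for the 8 genes; blue bars are HepG2 control 2 and orange bars Ls174 control 1. JUN and ATF3 are below 0 and JUNB and JUND above 0 in both.

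Other bZIP proteins share dimer partners or DNA elements with AP-1. Of 25 listed, 22 passed the filter on low counts in HepG2, where 5 rose and 1 fell, against 3.31% of all genes called in either direction, and 15 were higher and 1 lower at the limits of the study, by which 11.3% of all genes were higher. BATF and CREB5, which rose, were too low to be tested between the untreated lines and passed the filter in HepG2 through the HME libraries. The change itself thus helped to decide which genes were tested, and the counts are a description. The list had a median log2 fold change of 1.21, against -0.04 over all genes tested. Without HepG2 control 2, 12 were called higher and 1 lower, and without HME 3 or control 3 only 2 higher and 0 lower.

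MAFF and MAFK, small Maf proteins with no activating domain of their own, had log2 fold changes of 3.27 (SE 0.37, adjusted p = 0.00220) and 2.16 (SE 0.34, adjusted p = 0.0102). MAFF went from 9.14, 6.85 and 4.85 CPM to 59.4, 60.8 and 82.9 CPM. CREB5, of the CREB and ATF group, rose by 3.80 (SE 0.46, adjusted p = 0.00285) from 3.63 ± 1.70 to 51.9 ± 19.8 CPM. BATF, which pairs with Jun proteins and lacks an activating domain, rose by 2.17 (adjusted p = 0.0357), and CREM, which has activating and repressing forms, by 2.18 (adjusted p = 0.049975, just under the limit).

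NFE2, the subunit known from blood cells that pairs with small Maf proteins, was the gene that fell, from 17.5 ± 3.601 to 1.19 ± 1.03 CPM, -3.86 on the log2 scale (adjusted p = 0.0180). Among those not called, JDP2 (2.01), CEBPB (1.69) and NFE2L2 (1.63) had large values. In Ls174 0 of 18 tested were called, with 2 higher and 1 lower at the limits of the study, and 5 were called higher without Ls174 control 1. The largest values there were those of ATF4 (0.99, adjusted p = 0.194), JDP2 (0.99), MAFF (0.91) and ATF6 (-0.66). In the interaction 1 of 23, MAFK, was called (difference 2.35, adjusted p = 0.0174), against 0.613% of all genes in this direction. The call was lost without HepG2 HME 1, HepG2 HME 3 or any of the Ls174 HME libraries. MAFF came next (2.35, adjusted p = 0.0547).

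Of 23 kinase genes of the ERK, JNK and p38 cascades, which act on AP-1, 21 were tested in HepG2 with 0 calls and a median log2 fold change of -0.14. Since 3.31% of all genes were called, a list of this length would hold few calls in any case, and without HepG2 control 2 it held 1 higher and 1 lower. At the limits of the study 4 were higher and 2 lower, and by these limits 11.3% of all genes were higher. The largest values were those of MAPK7 (1.55, adjusted p = 0.160), MAP2K1 (1.39), MAP2K6 (-1.24) and RPS6KA3 (-1.18). In Ls174 0 of 22 were called, with 0 higher and 1 lower at the limits of the study. Kinase activity, which works through phosphate groups, is not seen in transcript counts.

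Of 12 activators of FOS and JUN transcription, such as the serum response factor SRF and its ELK partners, 11 were tested in each line with 0 calls. The largest values in HepG2 were those of MED23 (-1.54, adjusted p = 0.261) and ELK4 (1.46, adjusted p = 0.0791). MED23 had 69.5 ± 83.3 CPM in the HepG2 controls, where a single library held 266 of 399 counts, and 24.3 ± 1.84 CPM with HME. Of 13 genes for turnover or inhibition of Jun and Fos proteins, 12 were tested in each line with 0 calls, and the largest value in HepG2 was that of ITCH, a ubiquitin ligase for Jun proteins (1.64, adjusted p = 0.0600). The medians in HepG2 were 0.36 and -0.03, and without HepG2 control 2 the turnover list held 2 calls, both higher, and the activators 0. The adjusted calls of lists this short in HepG2 are read against the same 3.31% of all genes. At the limits of the study 11.3% of all genes were higher in HepG2. By these limits 2 activators were higher and 0 lower there, and 3 turnover genes higher and 1 lower. In Ls174 0 activators were higher and 2 lower, and 1 turnover gene was higher and 1 lower.

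Between the untreated lines, the kinases MAP3K1 (log2 difference 2.86, adjusted p = 0.00127), RPS6KA3 (3.28, adjusted p = 0.00215) and MAPK3 (2.06, adjusted p = 0.0306) were higher in HepG2, and MAP3K5 (-3.37, adjusted p = 0.0278) and MAPK9 (-1.24, adjusted p = 0.0329) higher in Ls174, where 23.5% of all genes were called. No kinase was called higher in Ls174 without HepG2 control 1, HepG2 control 2, Ls174 control 2 or Ls174 control 3, and 1 was without HepG2 control 3, while 2 kinases were called higher in HepG2 without Ls174 control 1 or control 2. ELK1 was higher in Ls174 (log2 difference, HepG2 against Ls174, -2.45, adjusted p = 0.0234), a call lost without HepG2 control 2, HepG2 control 3, Ls174 control 2 or Ls174 control 3. The glucocorticoid receptor NR3C1, which can hold AP-1 in check, had 32.3 ± 18.0 CPM in the HepG2 controls and no counts in the Ls174 controls (adjusted p = 0.000800). NFE2, with 17.5 ± 3.601 CPM against 0.256 ± 0.443 CPM, and NFE2L1 (1.75, adjusted p = 0.00353) were higher in HepG2.

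Many textbook AP-1 targets were too low to be tested, 13 of 25 passing in HepG2. Of these 13, 7 rose and 0 fell, against 2.77% of all genes called higher. EMP1, HBEGF and MMP3 were near or under the floor in the controls, and IL11, IL8 and PLAU were low there. None of these was tested between the untreated lines, and in HepG2 they passed the filter through the HME libraries. The change itself thus helped to decide which targets were tested, and the count is a description. In the 6 fits that left out 1 HepG2 library 7 targets were called each time, or 8 without control 2.

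HBEGF, a ligand of the EGF receptor, had 1.34, 0 and 2.02 CPM in the HepG2 controls and 75.2, 38.2 and 54.1 CPM with HME (log2 fold change 5.46, SE 0.59, adjusted p = 0.00208). IL11, a cytokine of the IL6 family, went from 2.98 ± 1.204 to 88.5 ± 0.338 CPM (4.96, SE 0.40, adjusted p = 0.000620). MMP3, a matrix protease, went from 1.71 ± 1.62 to 57.5 ± 4.94 CPM (4.94, SE 0.57, adjusted p = 0.00246). In all 3 genes the groups lay far apart.

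IL8, a chemokine that draws neutrophils, rose by 4.22 (SE 0.46, adjusted p = 0.00208), and PLAU, the urokinase protease, by 4.14 (SE 0.42, adjusted p = 0.00180). HMOX1, which breaks down heme and is also a textbook target of NFE2L2, rose by 3.14 (SE 0.39, adjusted p = 0.00288) from 82.1 ± 21.5 to 716 ± 224 CPM. EMP1, a membrane protein, had 0 counts in the controls and was at least 6.43-fold higher with HME (adjusted p = 0.00480). PLAUR (1.33), TIMP1 (0.75), CCND1 (-0.74) and HMGA1 (0.64) were the largest of those not called.

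In Ls174 10 targets were tested and 1, IL8, was called, against 1.18% of all genes in either direction. IL8 passed the filter there through the HME libraries. It had 1.97, 0.931 and 1.79 CPM in the controls and 18.2, 9.25 and 9.86 CPM with HME (log2 fold change 2.97, SE 0.53, adjusted p = 0.0392). HBEGF had 2.70 ± 1.93 and 15.1 ± 3.06 CPM (2.37, adjusted p = 0.100), with all HME values above the controls, and HMOX1 2.52 ± 1.76 and 8.17 ± 2.62 CPM (1.60, adjusted p = 0.308). No target was called when any Ls174 library other than control 1 was left out, and 2 were called higher and 1 lower without control 1. In the interaction 1 of 15 targets, IL11, was called (difference 6.92, adjusted p = 0.0157), against 0.613% of all genes in this direction. The call was lost without Ls174 HME 2 or HME 3. IL11 had 2.34 ± 3.08 and 0.474 ± 0.561 CPM in Ls174, at or under the floor in every library but control 1 (5.90 CPM). It passed the filter through the HepG2 HME libraries, so the change itself helped to decide that it was tested. The fitted difference depends on these low values. Between the untreated lines HMOX1 was higher in HepG2 (log2 difference 4.95, adjusted p = 0.000334) and CD44 higher in Ls174, at 106 ± 8.96 CPM against 0.656 ± 0.138 CPM, a level at or under the floor (adjusted p = 8.0e-05).

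**Figure D5:**
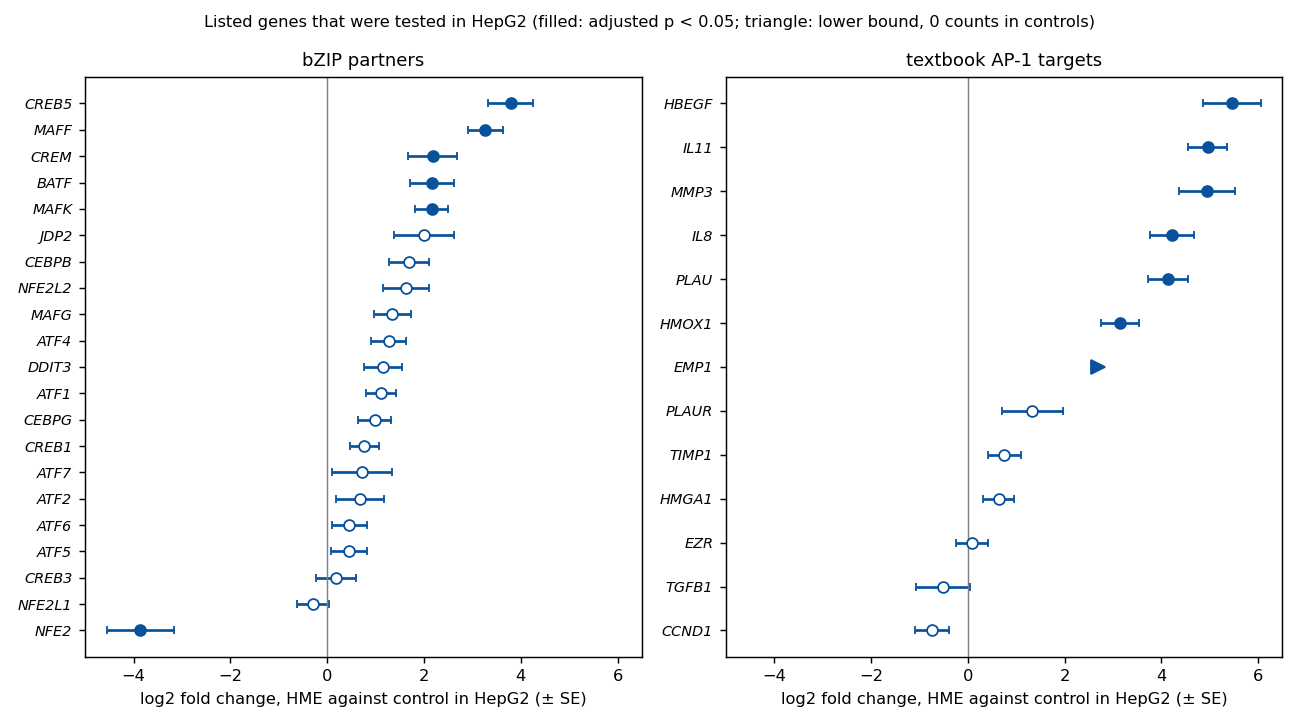
Log2 fold change (± SE) of HME against control in HepG2 for the bZIP partners (left) and textbook AP-1 targets (right) that were tested, leaving out a gene not reported here; filled symbols mark adjusted p < 0.05 and the triangle the lower bound for EMP1. The 6 filled circles on the right lie between 3.14 and 5.46, and NFE2 on the left, at -3.86, is the only filled symbol below 0.

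Within each line, the profiles of the members could be set beside those of all 13039 other genes over the 12 libraries, with log2 CPM centred on the mean of the line. The genes most like FOS were IER3 (Pearson r = 0.98), TRIB1 (0.98) and RSRC2 (0.97). Those most like JUN were SHB (0.99), ARG2 (0.98) and ATF3 (0.98), and those most like ATF3 were MCL1, HBEGF and AQP3 (each 0.98). Among the members JUN followed ATF3 (0.98), FOS (0.92) and FOSB (0.90) more than JUNB (0.56) and JUND (0.09), and JUND followed JUNB (0.81) and FOSL1 (0.74). These values describe 12 points that share 4 groups and the depth of their libraries.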

How the data were processed

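Libraries were made with a 3′ mRNA kit for Ion Torrent. Per the methods of the study, reads were aligned to hg19 with HISAT2 and analysed with metaseqR2, and the submitters' processing notes also list Bowtie2 and Trimmomatic. The deposited files hold whole-number counts of reads per 3′ region, which the authors had not normalized. Counts were summed over all regions of a gene. Expression was tested with edgeR 4.0.16 (R 4.3.3) by its quasi-likelihood test with TMM scaling and filterByExpr, in each line, between the untreated lines and as an interaction. SE was the log2 fold change divided by the square root of F. The study names a binomial test. A binomial test on summed counts, which has no term for replicate spread and may not be that of the study, was tried as an alternative, beside DESeq2 1.42.0, other scalings, other filters and leaving out libraries. Totals were 1790841 to 3656662 counts, and replicates differed by more than counting noise, with a chi-square of 4.44 to 54.1 per degree of freedom. The scripts were tested on simulated counts. All 8 members were named. Of each list, called genes and at most 4 others with the largest changes were named, and the 3 genes most like FOS, JUN and ATF3. Members and lists were chosen with earlier results of these data known. PECAM1 was not matched among the endothelial markers. Results of some listed genes are not reported here.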

Additional observations from a re-analysis of the deposited data

Results flagged for a closer look

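The difference in the response to HME between the lines passed the interaction test of edgeR over 12 libraries for ATF3 (HepG2 minus Ls174, 4.03 on the log2 scale), FOSL2 (2.85) and FOSL1 (2.75). The difference kept its direction in all 12 fits that left out 1 library, but it was called in 2 of them for ATF3 (adjusted p 0.00112 to 0.158), in 4 for FOSL2 (0.0208 to 0.117) and in 3 for FOSL1 (0.0273 to 0.157). The number of members called fell to 0 when any of 7 libraries was left out. All 3 were called when both HepG2 control 2 and Ls174 control 1 were left out.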

How the results depend on the processing

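The 7 members called in HepG2 kept their direction under every alternative run. Counts of called members changed as follows. With at least 10 counts in every library, a filter that left 5 members without FOS, FOSB and ATF3, 4 were called in HepG2 at either limit. The binomial test called 8 there, and at the limits of the study 8 passed with all genes and with the block. In Ls174 1 was called with all genes of at least 1 count and 2 by the binomial test, and at the limits of the study 1 in a fit of all 12 libraries, 2 by DESeq2, 2 with all genes, 2 by the binomial test and 1 by the exact test of edgeR. In the interaction 6 were called by DESeq2, 6 with all genes, 1 with library size only, 2 with the upper quartile and 2 with the filter of 10 counts, 0 with the replicate block and 6 without both HepG2 control 2 and Ls174 control 1, a choice made after seeing the data. Between the untreated lines 2 were called in the fit of all 12 libraries and 4 by the binomial test, and at the limits of the study 2 in the fit of all 12 libraries, 2 by the binomial test and 2 without both those controls. Leaving out 1 library gave 4 to 8 calls in HepG2 (7 to 8 at the limits of the study), 0 to 2 in Ls174 (0 to 3), 0 to 5 in the interaction (6 to 7) and 0 to 1 between the untreated lines (1 to 1). Directions turned only where no call was made, apart from JUND in Ls174 without control 1. In Ls174 leaving out 1 library gave log2 values of -0.60 to 0.36 for FOSL1, -0.30 to 0.37 for JUNB and -0.59 to 0.81 for JUND, the highest of each without control 1, and JUNB was also 0.02 without HME 2 and 0.06 without HME 3. JUNB was 0.020 by the binomial test and 0.0046 with the block, and JUND 0.087 with the block. In the interaction FOSB ran from -0.85 without Ls174 control 2 to 4.16. Between the untreated lines FOSL1 ran from -0.87 to 0.068, FOSL2 from -0.55 to 0.087, JUN from -0.86 to 0.095 and JUND from -0.40 to 1.41, and FOSL2 was 0.16 without both those controls. The causes were not tested. Library size alone moved the median of all genes to -0.20 in HepG2 (TMM -0.04) with 7 members still called, and the share of higher calls to 245 of 406 genes, from 314 of 375, and the upper quartile to 290 of 403. Over all genes DESeq2 called 911 in HepG2, 369 in Ls174 (134 by the main test) and 367 in the interaction (84), the binomial test 7556, 5529 and, between the untreated lines, 9149 (2798), and the exact test 1079 and 434. All genes of at least 1 count gave 1407, 604 and 367 calls, the filter of 10 counts 188 in HepG2, 46 in the interaction and 912 untreated, library size only 49 and the block 37 in the interaction, the fit of all 12 libraries 807 and, untreated, 4631, and both left-out controls 433 and 5625. With the replicate number as a block, 7 members were called in HepG2, 0 in Ls174 and 1 between the untreated lines, and 0 genes in Ls174. Same-numbered libraries were not taken as pairs. Their deviations from the group means correlated at -0.15, 0.07 and -0.12 in HepG2, -0.04, 0.01 and -0.06 in Ls174 and -0.38, -0.31 and 0.11 between the controls. Pairs of unlike number ran from -0.15 to 0.26 in HepG2, -0.06 to 0.07 in Ls174 and -0.28 to 0.35 between the controls. Whether same-numbered libraries shared a batch was not tested. Of 32 levels, 30 moved by less than 1 SD without TMM. In Ls174 no library held more than 6 counts of FOS or 5 of FOSB. Leaving out 1 library moved the genes called to 95 to 921 in HepG2, 0 to 979 in Ls174, 17 to 143 in the interaction and 2134 to 3367 between the untreated lines.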
